A study of Mus musculus with 10 samples.

Results

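The cytosolic ribosomal proteins are the protein parts of the ribosomes that translate nuclear-encoded mRNA. The genes were taken by symbol: names that open with Rpl or Rps followed by a number or by p0 to p2, and Rpsa, with a protein-coding transcript in the deposited table. The rule found 84 of 29657 genes, of which 51 belong to the large subunit and 33 to the small subunit. All samples were livers of wild-type C57BL/6 mice that had eaten CDAHFD for 8 weeks, a fatty diet without choline whose amino acids are given in free form. The control group of 5 libraries came from mice given AAV8-NC intravenously, a viral vector named as the negative control. The other group of 5 libraries came from mice given AAV8-TBG-galectin-3 by the same route, which the labels call a liver knockdown of galectin-3. TBG is a promoter that works in hepatocytes, the insert of that vector is not described in the labels, and no group on a normal diet or without virus was analysed here. The age and sex of the mice are not stated. The labels number the libraries 1 to 5 in each group without saying whether each came from its own animal, so the p-values measure only the spread between these libraries.

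A ribosome is built from ribosomal RNA and a single copy of most ribosomal proteins, so the cell makes these proteins in near-equal numbers. Their mRNAs are short and abundant, and most start with a C followed by a run of pyrimidines, the 5′ terminal oligopyrimidine tract, through which their translation follows the kinase mTOR and the RNA-binding protein Larp1. In liver, ribosome content falls in fasting and recovers with feeding. Ribosomal proteins also have many processed pseudogenes, copies of the mRNA inserted elsewhere in the genome, whose reads are hard to separate from those of the parent gene.

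The starts of the genes were looked at first, since a shared tract is the best known feature that the choice of genes did not use. RefSeq windows from 250 bases before to 50 bases after the annotated start, on build GRCm38.p6, were matched by symbol for 63 of the 84 genes. Printed here are 60 bases before and 20 bases from the start for 8 of them, with the tract in capitals where there is 1. The first 5 passed the test described below as higher in the labelled knockdown livers, and the other 3 did not. They lie as follows: Rpl28 at chr7:4792905-4792984 on the plus strand, Rps18 at chr17:33955646-33955725 on the minus strand, Rps23 at chr13:90923062-90923141 on the plus strand, Rpl11 at chr4:136053374-136053453 on the minus strand, Rps28 at chr17:33824543-33824622 on the minus strand, Rps6 at chr4:86857348-86857427 on the minus strand, Rpl5 at chr5:107900468-107900547 on the plus strand and Rps4x at chrX:102189372-102189451 on the minus strand.
Rpl28: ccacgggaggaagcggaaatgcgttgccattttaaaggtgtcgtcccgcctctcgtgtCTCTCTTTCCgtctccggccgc
Rps18: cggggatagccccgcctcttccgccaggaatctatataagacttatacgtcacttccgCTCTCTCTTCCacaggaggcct
Rps23: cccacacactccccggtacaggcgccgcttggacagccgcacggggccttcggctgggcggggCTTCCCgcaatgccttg
Rpl11: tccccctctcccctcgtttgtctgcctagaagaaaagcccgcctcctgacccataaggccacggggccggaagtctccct
Rps28: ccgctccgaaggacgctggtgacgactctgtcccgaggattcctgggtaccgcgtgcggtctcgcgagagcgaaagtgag
Rps6: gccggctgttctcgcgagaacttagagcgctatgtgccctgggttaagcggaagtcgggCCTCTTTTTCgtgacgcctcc
Rpl5: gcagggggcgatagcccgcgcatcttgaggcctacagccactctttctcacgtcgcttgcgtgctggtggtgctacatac
Rps4x: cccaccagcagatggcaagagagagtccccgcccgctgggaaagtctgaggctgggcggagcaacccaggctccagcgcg

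A tract was counted where a C followed by at least 5 further C or T opened within 10 bases of the annotated start, on the strand of the gene. It was present in 34 of the 63 genes (54.0%), against 23.3% of the 9370 tested genes with a window and 21.5% of all 27025 genes with a window. In the sequences above, Rpl28, Rps18, Rps23 and Rps6 carry it, and Rpl11, Rps28, Rpl5 and Rps4x hold no such run there, which says only that these letters are not at the annotated start. Of the genes that passed as higher, 18 of 30 with a window held the tract (60.0%), and of the tested genes that did not pass, 15 of 31 did (48.4%). The element CCGGAAG, a core bound by GABPA and other ETS factors, was found on either strand in 41.3% of the genes, against 20.2% of tested genes. The YY1 element AAGATGGC was found on either strand in 9.52%, against 5.37%, and TATAAA in 11.1%, against 9.47%. CCGGAAG and AAGATGGC can share the letters AAG. A match describes the letters and is not evidence of a bound site.

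The data were poly(A) RNA-seq values in FPKM, fragments per kilobase of transcript scaled to the mapped fragments of the library. FPKM carries no read counts, so the depth behind each value is unknown. Of all genes, 13471 stood at 0.5 FPKM or more in 5 or more libraries and were tested with limma on log2(FPKM + 1); all log2 fold changes are labelled knockdown minus control on that scale, and a gene was called at a Benjamini-Hochberg adjusted p under 0.05 over all tested genes. Lgals3, the targeted transcript, stood at 42.2 to 105 FPKM in the control libraries and 41.9 to 90.8 FPKM in the labelled knockdown libraries (log2 fold change 0.08, SE 0.25, adjusted p = 0.856). No fall of this transcript was seen in whole liver, though with this SE a moderate fall is not excluded. The group is therefore called labelled knockdown throughout. Of all tested genes, 960 were higher and 1300 lower; with median-of-ratios scaling these counts were 1240 and 1060, and with all libraries brought to the same FPKM total, a setting chosen after seeing the data, they were 635 and 1976. In bulk liver, fewer cells of a type and less RNA per cell cannot be told apart. Total FPKM was 380593 ± 7412 in the control group and 401666 ± 12562 in the labelled knockdown group (SD, n = 5), and genes encoded in mitochondrial DNA took 14.2 ± 1.57% and 16.4 ± 3.06% of it. Hepatocyte markers were abundant in every library, with a sum of 42905 to 48075 FPKM in the control group and 41831 to 52423 FPKM in the other.

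Cytosolic ribosomal protein transcripts were higher in the labelled knockdown livers in both subunits. Of the 84 genes, 82 passed the filter on low values, 49 of the large and 33 of the small subunit, and 43 of these were called higher and 0 lower. Among all tested genes, 7.13% were called higher and 9.65% lower. Across libraries, as deviations from group means, a gene correlated with the mean of the other ribosomal protein genes at a median of 0.63. That correlation was above 0.5 for 58 of the 82, so the 43 calls are not independent of each other. The median log2 fold change was 0.34 over the large subunit and 0.33 over the small subunit, against -0.04 over all tested genes. A positive difference was found in 75 of the 82, and those called ranged from 0.27 to 0.80. In 32 of the 82, all 5 labelled knockdown libraries lay above all 5 control libraries, as they did in 5.66% of all tested genes, and in 0 of the 82 they all lay below, as in 7.48% of all tested genes. The authors' deposited table gave 47 of the 84 a q-value under 0.05, all of them with the labelled knockdown group higher, and 2623 of 29657 genes in either direction. Its own column for significance marked 1 of the 84, Rpl7a, and 398 genes in all, per the authors' deposited table.

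The level of the subunits in each library gives the same picture without single genes. Summed FPKM of the large subunit was 5226, 4498, 4441, 4745 and 5356 in control libraries 1 to 5 and 5707, 5452, 5879, 5685 and 6582 in labelled knockdown libraries 1 to 5. The small subunit sums were 3566, 3080, 3100.1, 3283 and 3652 FPKM in the control libraries and 3756, 3749, 3981, 3890.3 and 4456 FPKM in the labelled knockdown libraries. The groups did not overlap for either subunit, controls 2 and 3 were the lowest libraries and labelled knockdown 5 was the highest. The gap between the groups was narrow, from control 5 to labelled knockdown 2. As a share of total FPKM the groups overlapped, with 2.15 ± 0.176% of each library in the control group and 2.45 ± 0.196% in the other for both subunits together, and ranges of 1.98 to 2.37% and 2.24 to 2.74%. The ratio of the large to the small subunit sum was 1.45 ± 0.0147 and 1.48 ± 0.0252 (SD, n = 5), with ranges of 1.43 to 1.47 and 1.45 to 1.52 that overlapped.

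**Figure D1:**
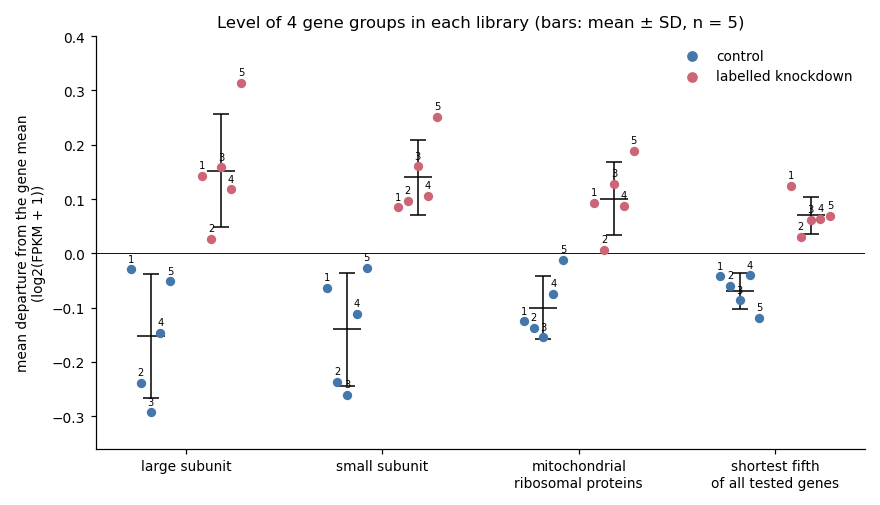
Mean departure of each library from the gene means, on the log2(FPKM + 1) scale (y axis), for the tested large subunit and small subunit genes, the mitochondrial ribosomal proteins and the shortest of 5 equal classes of all tested genes by transcript length. Points are single libraries numbered by replicate and bars are mean ± SD (n = 5); in all 4 sets the control libraries lie below 0 and the labelled knockdown libraries above.

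The count of calls depended on which libraries were in the fit. Leaving out control 2 or control 3 left 10 large subunit and 9 small subunit genes called higher, with 3.7% and 3.3% of all tested genes higher. The large subunit count was 17 without control 4, 16 without labelled knockdown 1 or 3, and 14 without labelled knockdown 5, while between 4.43% and 4.67% of all tested genes were higher. Of the 43 genes, 19 were called whichever of the 10 libraries was left out, 10 of the large and 9 of the small subunit. No ribosomal protein gene was called lower in any of these fits.

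**Figure D2:**
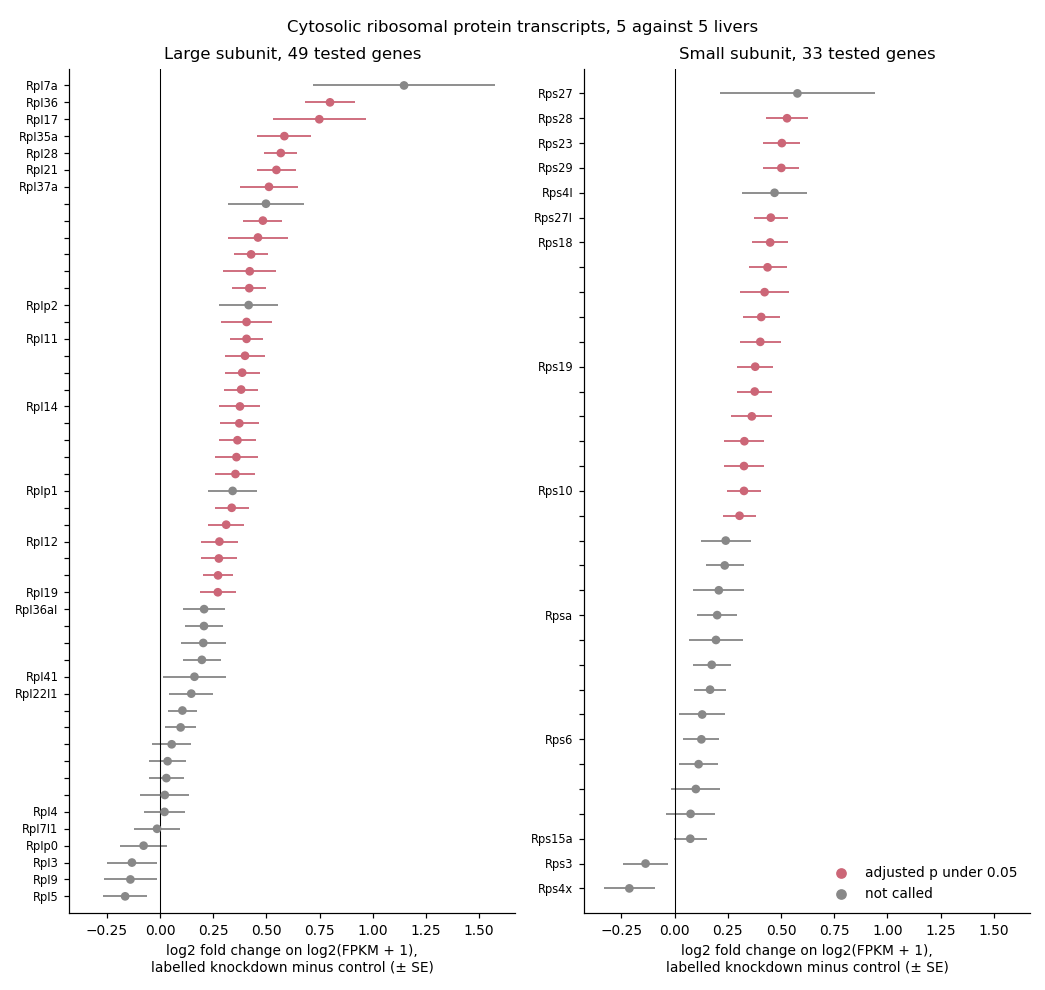
Log2 fold change with its SE (x axis) of each tested gene, ordered by size within the large subunit (left, 49 genes) and the small subunit (right, 33 genes), with labels on genes described in the text. Coloured points passed the limma test at an adjusted p under 0.05 and grey points did not; all 43 coloured points lie to the right of 0.

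In the large subunit, 27 of 49 tested genes were higher, led by Rpl36 among those called. Rpl36, which encodes a small protein of the large subunit, held 168, 115, 117, 119 and 118 FPKM in control libraries 1 to 5 and 243, 229.9, 209, 191 and 234 FPKM in the labelled knockdown libraries. Control 1 stood above the other controls and still lay below every labelled knockdown library. Rpl36 rose by a log2 fold change of 0.80 (SE 0.12, adjusted p = 0.00684), from 128 ± 22.5 to 221 ± 21.1 FPKM (SD, n = 5). Rpl28, a protein that budding yeast lacks, held 78.1, 72.9, 66.9, 73.9 and 74.2 FPKM in the control libraries and 118, 99.7, 106, 104 and 118 FPKM in the others. The groups were far apart beside their spread, and the log2 fold change was 0.57 (SE 0.08, adjusted p = 0.00641). Rpl35a, mutated in some patients with Diamond-Blackfan anaemia, held 20.2, 18.6, 16.8, 21.2 and 12.8 FPKM against 27.8, 24.6, 25.8, 25.4 and 31.8 FPKM. It did not overlap between the groups and rose by a log2 fold change of 0.58 (SE 0.13, adjusted p = 0.0154). Rpl37a, a zinc-binding protein, held 56.2, 47.6, 45.8, 65.1 and 53.8 FPKM against 76.4, 74.7, 72.1, 62.0 and 102 FPKM. Its groups touched, since labelled knockdown 4 lay below control 4, and its log2 fold change of 0.51 (SE 0.13, adjusted p = 0.0277) was called in 7 of the 10 fits without a library.

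Genes of the large subunit were read by the place of their protein, and differences between places were not tested. Of 8 that line or surround the tunnel through which the new protein leaves, 7 were higher: Rpl17, Rpl39, Rpl23a, Rpl35, Rpl26, Rpl31 and Rpl19, with log2 fold changes from 0.27 for Rpl19 to 0.75 for Rpl17, against 7.13% of all tested genes. After removal of the length trend described below, 0 of the 8 were higher and their median went from 0.38 to 0.22. The 8th was Rpl4, the longest of them, at 324 ± 35.9 and 328 ± 26.8 FPKM (log2 fold change 0.02, adjusted p = 0.897). Of the pair that carries 5S ribosomal RNA into the large subunit and can bind Mdm2, the partner of p53, Rpl11 was higher and Rpl5 was not. Rpl11 held 68.3, 59.0, 59.3, 62.1 and 55.0 FPKM in the control libraries and 88.1, 77.0, 79.8, 78.5 and 80.2 FPKM in the labelled knockdown libraries. The groups were apart, and its log2 fold change was 0.41 (SE 0.08, adjusted p = 0.0102). Rpl5 held 82.1, 68.7, 63.3, 63.9 and 76.4 FPKM against 51.4, 62.5, 67.5, 68.8 and 65.7 FPKM. Its groups overlapped and labelled knockdown 1 was the lowest library (log2 fold change -0.16, SE 0.10, adjusted p = 0.292).

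The stalk recruits elongation factors to the large subunit and consists of Rplp0 at its base, dimers of Rplp1 and Rplp2, and Rpl12 beside it. Rplp1 was the most abundant of all these transcripts, with 586, 504, 509.6, 589.9 and 676 FPKM in the control libraries and 665, 668, 707, 696 and 898 FPKM in the labelled knockdown libraries. Control 5 lay among the labelled knockdown libraries, and the log2 fold change of 0.34 did not pass the test (SE 0.12, adjusted p = 0.0643). Rplp2 held 37.3, 31.8, 33.5, 38.8 and 34.8 FPKM against 39.4, 41.8, 47.2, 43.3 and 69.9 FPKM. It did not overlap but spread widely in the second group, with a log2 fold change of 0.42 (SE 0.14, adjusted p = 0.0599). Rplp0, often used as a reference gene in PCR, held 361, 326, 339, 335 and 403 FPKM against 272, 309, 359, 349 and 393 FPKM. The groups overlapped widely (log2 fold change -0.08, SE 0.11, adjusted p = 0.66). Rpl12 was higher by a log2 fold change of 0.28 (SE 0.09, adjusted p = 0.0488) and was called in 2 of the 10 fits without a library.

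**Figure D3:**
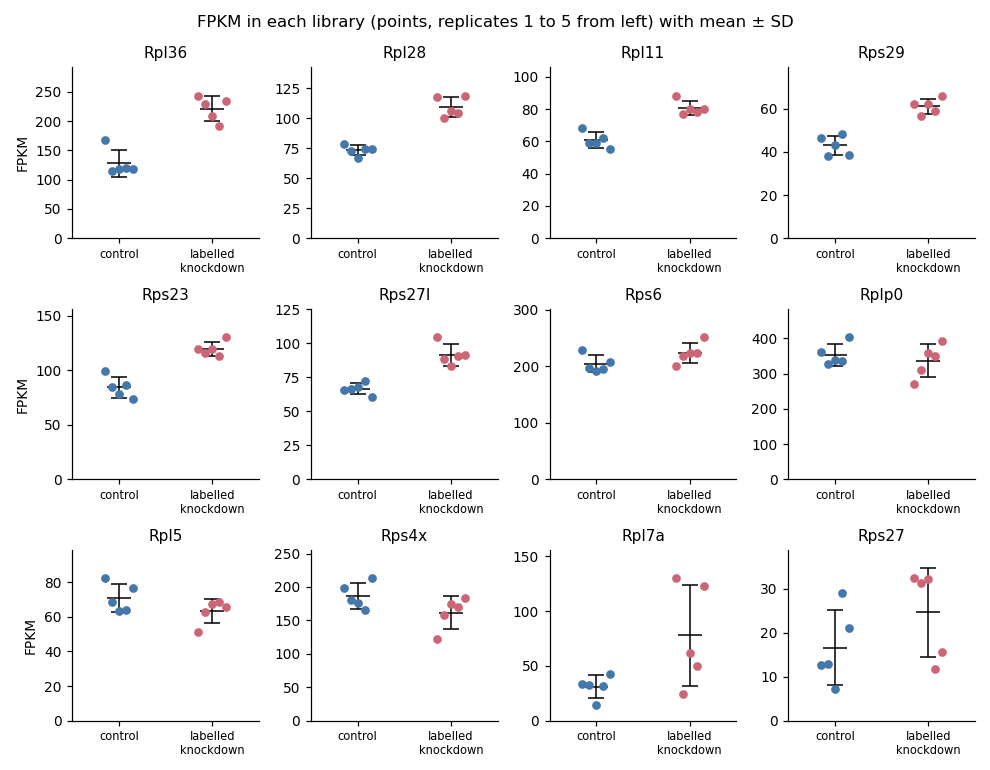
FPKM of 12 genes in each library (points, replicates 1 to 5 from left in each group) with mean ± SD (n = 5); each y axis starts at 0. Rpl36, Rpl28, Rpl11, Rps29, Rps23 and Rps27l do not overlap between the groups; Rps6, Rplp0, Rpl5, Rps4x, Rpl7a and Rps27 do.

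In the small subunit, 16 of 33 genes were higher, most of them from its head. The head holds the proteins around the mRNA and the tRNA anticodons, and 11 of its 14 genes were higher, the median log2 fold change being 0.37. Rps3 and Rps27a were among those that did not pass. In the body and platform 4 of 17 genes were higher, Rps23 and Rps26 among them, with a median of 0.19. Among all tested genes, 7.13% were higher. The difference between head and body was not tested, and the head genes had a shorter median coding length, 435 bases against 474 bases. After removal of the length trend described below, 5 head genes and 1 of the 17 body genes were higher, against 6.31% of all tested genes.

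Rps29, a small zinc-binding protein of the head, held 46.4, 38.2, 43.4, 48.3 and 38.7 FPKM in control libraries 1 to 5 and 62.0, 56.4, 62.2, 59.0 and 66.0 FPKM in the labelled knockdown libraries. The groups did not overlap, and Rps29 rose by a log2 fold change of 0.50 (SE 0.08, adjusted p = 0.00941). Rps28, which sits where mRNA leaves the small subunit, held 12.96, 11.3, 12.4, 15.2 and 12.5 FPKM against 17.9, 19.2, 17.5, 17.2 and 23.2 FPKM. Every labelled knockdown library was above every control, with a log2 fold change of 0.53 (SE 0.10, adjusted p = 0.0102). Rps23, a protein of the decoding centre, held 99.0, 84.8, 78.2, 86.4 and 74.1 FPKM against 119.6, 116, 119.6, 114 and 130.5 FPKM. Its log2 fold change was 0.50 (SE 0.09, adjusted p = 0.00944), with no overlap. Rps18, a head protein that meets the large subunit, held 79.5, 63.5, 63.1, 63.3 and 62.2 FPKM against 96.0, 94.8, 87.9, 85.3 and 88.8 FPKM. Control 1 was high for its group and still below the labelled knockdown libraries, and the log2 fold change was 0.45 (SE 0.08, adjusted p = 0.0102).

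Several well-known small subunit genes did not pass. Rps6, the substrate of S6 kinase downstream of mTOR, held 229, 197, 192, 196 and 208 FPKM in the control libraries and 201, 218, 224, 223 and 252 FPKM in the labelled knockdown libraries. The highest control lay above 4 of the labelled knockdown libraries (log2 fold change 0.13, SE 0.08, adjusted p = 0.32; 95% interval -0.06 to 0.31). Rpsa, also known as the laminin receptor precursor, stood at 191 ± 14.4 and 221 ± 25.7 FPKM (log2 fold change 0.20, adjusted p = 0.165). Rps4x, an X-linked gene, held 198, 181, 176, 165 and 213 FPKM against 122, 158, 174, 171 and 184 FPKM. All 5 labelled knockdown libraries were below the control mean, but the groups overlapped (log2 fold change -0.21, SE 0.12, adjusted p = 0.234). Rps3, at the entry of the mRNA channel, had a log2 fold change of -0.14 (adjusted p = 0.395) and Rps15a one of 0.07 (adjusted p = 0.527). Rps27 had the largest difference of the small subunit and the widest spread, with 12.6, 12.9, 7.24, 29.0 and 20.95 FPKM against 32.3, 31.3, 32.1, 11.9 and 15.5 FPKM. Labelled knockdown 4 and 5 lay among the controls, and the log2 fold change of 0.58 did not pass (SE 0.37, adjusted p = 0.293).

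Some ribosomal proteins go by other names and stand outside the symbol rule. Fau, a ubiquitin-like protein joined to a small subunit protein, held 140, 121, 114, 144 and 126 FPKM in the control libraries and 144, 157, 169, 160 and 217 FPKM in the labelled knockdown libraries. Every labelled knockdown library was above every control, narrowly for labelled knockdown 1, and the log2 fold change was 0.38 (SE 0.12, adjusted p = 0.0424). After removal of the length trend Fau stood at 0.24 and did not pass (adjusted p = 0.175). Rack1, the signalling scaffold on the head, held 77.6, 69.5, 67.1, 64.2 and 78.3 FPKM against 59.9, 65.4, 68.7, 70.9 and 70.1 FPKM, which overlapped (log2 fold change -0.09, SE 0.08, adjusted p = 0.486).

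Another fit asked which genes departed from the rest of the family. The values of each library were taken relative to the library's median of the 82 tested genes, so the differences describe these genes relative to each other. On that scale 2 genes were higher, Rpl36 (0.47, SE 0.11, adjusted p = 0.00403) and Rpl28 (0.24, SE 0.08, adjusted p = 0.0223), against 0.794% of all tested genes. Lower were 14 genes, against 57% of all tested genes: Rps4x, Rpl5, Rpl9, Rps3, Rpl3, Rplp0, Rpl7l1, Rpl4, Rpl8, Rpl7, Rpl22, Rpl10a, Rps15a and Rpl15. The lowest was Rps4x at -0.54 (SE 0.12, adjusted p = 0.00276), followed by Rpl5 at -0.49 (SE 0.10, adjusted p = 0.00249). Rpl9, near the site where elongation factors bind, held 45.7, 38.5, 38.8, 43.1 and 49.6 FPKM in the control libraries and 29.3, 37.3, 41.5, 40.2 and 48.8 FPKM in the others. Rpl3, which reaches towards the centre that joins amino acids, held 107, 80.2, 81.9, 81.2 and 99.8 FPKM against 67.5, 75.3, 88.2, 84.5 and 94.8 FPKM. Both genes overlapped between the groups in FPKM, and relative to the family they were lower, at log2 differences of -0.47 (adjusted p = 0.00448) and -0.46 (adjusted p = 0.00316). Labelled knockdown 1 was the lowest of the 10 libraries in 9 of the 14 genes, and 11 of the 14 were called whichever of the 10 libraries was left out. After removal of the length trend 9 of the 14 were still called lower, and Rps15a (-0.02, adjusted p = 0.826), Rpl15 (-0.11, adjusted p = 0.291), Rpl7l1 (-0.17, adjusted p = 0.198), Rpl22 (-0.16, adjusted p = 0.148) and Rpl4 (-0.24, adjusted p = 0.0786) did not pass. With each gene summed with its named pseudogenes, 8 were lower and 4 higher.

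Paralogs are second genes for a ribosomal protein, often with a narrower range of tissues. Of 7 tested, Rps27l was higher and the others did not pass. Rps27l, a p53 target and close relative of Rps27, held 65.9, 66.6, 68.1, 71.9 and 60.3 FPKM in the control libraries and 104, 88.4, 82.9, 90.8 and 91.3 FPKM in the labelled knockdown libraries. There was no overlap and the log2 fold change was 0.45 (SE 0.08, adjusted p = 0.00944). Rps4l, a relative of Rps4x, had a log2 fold change of 0.47 (SE 0.15, adjusted p = 0.0564). It held 7.98, 11.7, 9.37, 12.4 and 13.3 FPKM against 18.5, 15.4, 17.6, 15.1 and 11.05 FPKM, with labelled knockdown 5 among the controls. Rpl36al (0.21, adjusted p = 0.166), Rpl22l1 (0.15, adjusted p = 0.344) and Rpl7l1 (-0.01, adjusted p = 0.942) did not pass either. Rpl3l, a muscle form, and Rpl39l, a testis form, were below 0.12 FPKM in every library and were not tested.

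Some of the largest differences were in genes with abundant named pseudogenes. Whether reads were assigned between a gene and its pseudogenes differently in the libraries was not tested, since the values are FPKM per gene. The table listed 214 genes named as pseudogenes of ribosomal proteins, and 57 of the 82 tested genes had at least 1. For 9 genes the named pseudogenes held over 50% of the summed FPKM: Rpl7a, Rpl9, Rpl17, Rpl21, Rpl30, Rpl34, Rps10, Rps12 and Rps19. Rpl7a, with the largest difference of all, held 33.3, 32.5, 14.0, 31.9 and 43.0 FPKM in the control libraries and 129.7, 24.5, 61.9, 50.1 and 123 FPKM in the labelled knockdown libraries. The spread was wide and labelled knockdown 2 lay among the controls (log2 fold change 1.15, SE 0.43, adjusted p = 0.0862). Its 8 named pseudogenes held 80.4% of the sum, and for the sum the difference was 0.42 (SE 0.08, adjusted p = 0.0102). Among them Rpl7a-ps11 held 126, 120, 136, 124 and 102 FPKM in the control libraries. In the labelled knockdown libraries it held 89.9, 163, 146, 136 and 99.4 FPKM. Within that group it was lowest in library 1 and highest in library 2, where Rpl7a was highest and lowest. Rpl17 held 53.6, 65.3, 40.8, 66.8 and 67.2 FPKM against 103, 55.4, 125, 99.6 and 125 FPKM. Labelled knockdown 2 lay within the control range. In that library the pseudogene Rpl17-ps10 was at its highest, 235 FPKM, while Rpl17-ps3 stood at 90.8 FPKM and was not. The log2 fold change of Rpl17 was 0.75 (SE 0.22, adjusted p = 0.0386). Rpl17 was called in 2 of the 10 fits without a library, and in sum with its pseudogenes it stood at 0.24 (SE 0.09, adjusted p = 0.0729). Rpl21 went from 0.55 (adjusted p = 0.00941) alone to 0.23 (adjusted p = 0.0942) in sum, with 93.8% of the sum in pseudogenes. Rps19 went from 0.38 (adjusted p = 0.0167) to -0.10 (adjusted p = 0.681) and Rps10 from 0.33 (adjusted p = 0.0225) to 0.12 (adjusted p = 0.362). Summed in this way, a setting chosen after seeing the data, 24 large and 12 small subunit genes were higher, with medians of 0.30 and 0.24, and 0 lower, against 7.06% higher and 9.79% lower of the features tested. Rpl36, Rpl28, Rps23, Rps28 and Rps29 had log2 fold changes between 0.50 and 0.79 in sum. Of the 109 pseudogenes tested on their own, 15 were higher and 0 lower, with a median of 0.19, against 7.13% of all tested genes higher. After removal of the length trend 3 were higher with a median of 0.02, against 6.31% of all tested genes higher.

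Transcript length moved with the groups and bears on this family of short genes. Long transcripts stood slightly above their gene means in the control libraries and slightly below in the labelled knockdown libraries. In the shortest of 5 equal classes of all tested genes, up to 1278 bases, the median log2 fold change was 0.15 and 17.3% were higher. That class held 66 of the 82 genes, with a median of 0.36 and 39 called higher. With the trend of each library along transcript length taken out, 8 large and 7 small subunit genes were higher and 0 lower, against 6.31% higher and 5.14% lower of tested genes, and the medians were 0.21 and 0.20. These were Rpl11, Rpl21, Rpl23, Rpl27, Rpl28, Rpl32, Rpl35a and Rpl36, and Rps18, Rps20, Rps23, Rps25, Rps27l, Rps28 and Rps29. All 15 were among the 43. With GC content taken out too, 8 large and 6 small subunit genes were higher and 0 lower, against 6.17% higher and 5.15% lower of tested genes. With length alone taken out, the mean level of the groups overlapped in both subunits, since control 5 reached 0.04 and 0.07 while the lowest labelled knockdown library stood at 0.01 for the large and -0.01 for the small subunit. Whether the length trend reflects the RNA, the libraries or the livers was not tested.

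**Figure D4:**
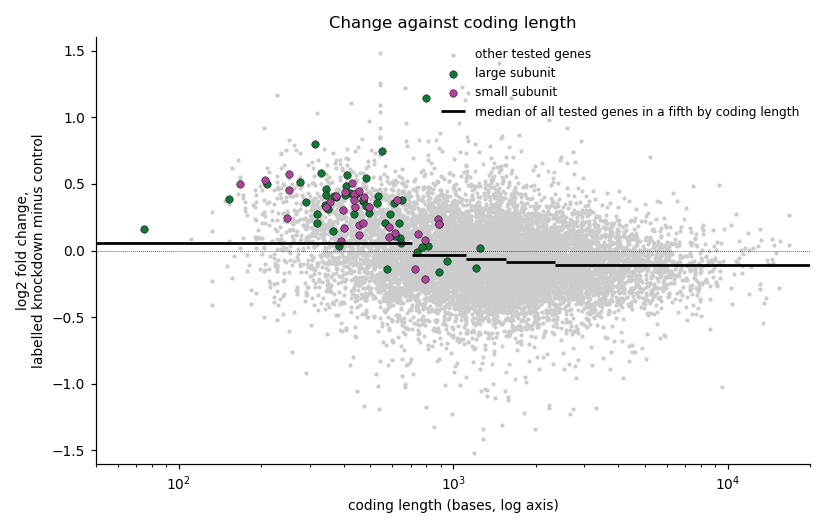
Log2 fold change (y axis) against coding length in bases (x axis, log scale) for all tested genes (grey), large subunit genes (green) and small subunit genes (purple); horizontal bars are the medians of all tested genes in 5 equal classes, and points outside the plotted range are not drawn. Most ribosomal protein genes with short coding sequences lie above the bar of their class, and the 13 genes of the next class, from 711 to 1116 bases, had a median of 0.03.

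Within the family the difference was smallest for genes with the longest coding sequences. With the genes cut into 4 classes by coding length, the medians were 0.39 (75 to 366 bases), 0.40 (369 to 453), 0.33 (456 to 612) and 0.08 (624 to 1257). Rps4l, which has no coding sequence in GENCODE M21, was counted in the longest class. Called higher were 13 of 21, 15 of 20, 13 of 20 and 2 of 21, against 7.13% of all tested genes. Rpl14, in the longest class, was called at a log2 fold change of 0.38 (adjusted p = 0.0256). Of the 14 genes lower relative to the family, 10 were in the longest class, while 57% of all tested genes were lower on that scale. Across genes, which share the same 10 libraries and are not independent, Spearman's rho between log2 fold change and coding length was -0.55 (n = 81), with -0.53 in the large (n = 49) and -0.61 in the small subunit (n = 32). After removal of the transcript length trend it was -0.49. In the shortest of 5 classes of all tested genes by coding length the median was 0.06 and 15.6% were higher, and the 66 ribosomal protein genes there had a median of 0.36 with 43 called. The shortest of all, Rpl41, with 75 coding bases, stood at 160.4 ± 26.7 and 181 ± 37.1 FPKM and did not pass (log2 fold change 0.16, adjusted p = 0.475).

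**Figure D5:**
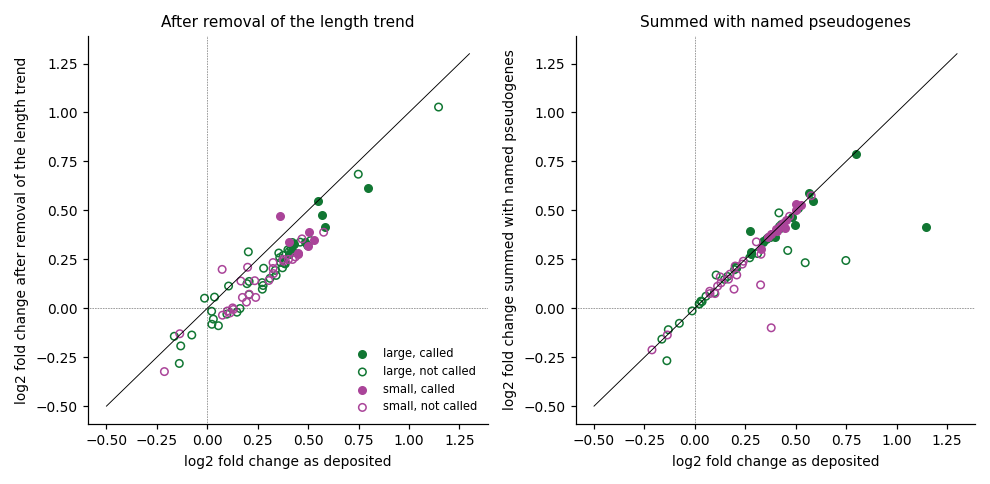
Log2 fold change of each tested gene in the limma fit to the FPKM values as deposited (x axis), with the line of equality. The y axis is its value after removal of the transcript length trend (left) or after summing with its named pseudogenes (right). Filled points passed the limma test in the setting of the y axis; on the left most points lie below the line, and on the right Rpl7a, Rpl17, Rpl21, Rps10 and Rps19 lie below it.

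Other lists of mostly short genes were read against the 7.13% of all tested genes called higher, or 6.31% after removal of the length trend. Of 78 mitochondrial ribosomal protein genes, which build the ribosome inside mitochondria, 25 were higher and 0 lower with a median of 0.20. After removal of the length trend 23 were higher, 17 of them among the 25. Mrpl54 rose by a log2 fold change of 0.59 (SE 0.09, adjusted p = 0.00696) and Mrpl20 by one of 0.52 (SE 0.07, adjusted p = 0.00658). Of 80 tested nuclear-encoded genes of the respiratory chain and ATP synthase, 40 were higher and 2 lower with a median of 0.32. After length removal 22 were higher, 21 of them among the 40. Among them Uqcrq, a subunit of complex III, rose by a log2 fold change of 0.75 (SE 0.12, adjusted p = 0.00778). The difference between these lists and the cytosolic ribosomal proteins was not tested.

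Genes that make or steer ribosomes were read from 3 lists. Of 54 tested genes of ribosome biogenesis, 5 were higher and 2 lower with a median of -0.01, near or under the 7.13% and 9.65% of all tested genes. Nhp2 (0.37, adjusted p = 0.0339) and Nop10 (0.36, adjusted p = 0.0355), which guide RNA pseudouridylation, were higher, and Imp4 (-0.32, adjusted p = 0.0368) and Utp4 (-0.31, adjusted p = 0.0424), factors of small subunit processing, were lower. Once the length trend was taken out, none of the 54 passed (adjusted p = 0.124, 0.111, 0.191 and 0.0606 for these 4). Of 16 other genes with known pyrimidine tracts, mostly translation factors, 3 were higher and 1 lower, with a median of -0.03. Tpt1 rose by a log2 fold change of 0.39 (SE 0.09, adjusted p = 0.0176), Gas5, a noncoding host of small nucleolar RNAs, by 0.33 (adjusted p = 0.0312) and Eef1d by 0.25 (adjusted p = 0.0331), while Nap1l1, a histone chaperone, fell by 0.52 on the log2 scale (adjusted p = 0.00941). Of 22 tested genes that regulate ribosomal protein mRNAs, 2 were higher and 3 lower. After removal of the length trend 4 were higher and 0 lower, against 6.31% higher and 5.14% lower of all tested genes. The 2 added were the S6 kinase genes Rps6kb1 (0.33, adjusted p = 0.0139) and Rps6kb2 (0.44, adjusted p = 0.0231). Ddit4, an inhibitor of mTOR complex 1 induced by stress, held 23.1, 11.1, 13.3, 6.45 and 6.58 FPKM in the control libraries and 86.8, 23.8, 35.9, 65.1 and 86.0 FPKM in the labelled knockdown libraries. It did not overlap and rose by a log2 fold change of 2.19 (SE 0.40, adjusted p = 0.0101). Sesn2, another stress-induced inhibitor of the same complex, rose by a log2 fold change of 0.50 (SE 0.14, adjusted p = 0.0348), while Mtor (-0.28, adjusted p = 0.0429), Rptor (-0.25, adjusted p = 0.0398) and the Myc antagonist Mxd4 (-0.30, adjusted p = 0.0235) were lower. Mtor, Rptor and Mxd4 did not pass once that trend was taken out (adjusted p = 0.144, 0.294 and 0.119). Larp1 (-0.09, adjusted p = 0.351) and Myc (-0.15, adjusted p = 0.765) did not pass.

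Markers of the cell types in liver were read beside these results and the 7.13% higher and 9.65% lower of all tested genes. Of 8 tested hepatocyte markers, Apoa2 (0.66, adjusted p = 0.0146) and Ttr (0.40, adjusted p = 0.0268) were higher and Hnf4a (-0.42, adjusted p = 0.00944) lower. Of 10 tested macrophage and Kupffer cell markers 2 were lower, Adgre1 (-0.95, adjusted p = 0.00684) and Cd5l (-1.01, adjusted p = 0.016), and the list summed to 218 to 313 FPKM in the control libraries and 162 to 263 FPKM in the others. Of 10 stellate cell markers 2 were lower, Col1a1 (-0.83, adjusted p = 0.0499) and Reln (-0.40, adjusted p = 0.0159), with sums of 98.8 to 113 and 56.5 to 111 FPKM. Of 8 endothelial markers Pecam1 was lower (-0.30, adjusted p = 0.0445), with sums of 15.8 to 30.8 and 14.1 to 21.1 FPKM. None of 5 tested cholangiocyte markers passed, with sums of 126 to 365 and 41.7 to 297 FPKM, and none of 4 tested lymphocyte markers, with sums of 5.36 to 7.56 and 4.32 to 8.20 FPKM. Once the length trend was taken out, Ttr, Col1a1 and Pecam1 did not pass (adjusted p = 0.0729, 0.0787 and 0.142). The median log2 fold change was 0.10 over hepatocyte markers, with 5 of 8 positive, against -0.04 over all tested genes. It was -0.33 over macrophage and Kupffer cell markers (9 of 10 negative) and -0.22 over stellate cell markers (9 of 10 negative). For endothelial, cholangiocyte and lymphocyte markers it was -0.33, -0.46 and -0.13, with 7 of 8, 5 of 5 and 3 of 4 negative. No gene of these lists was at 0 in all 10 libraries. The part of cell composition in the levels of the ribosomal protein genes was not tested.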

How the data were processed

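Liver RNA of 10 libraries, 5 per group, was sequenced after poly(A) selection, with the second cDNA strand marked by dUTP and removed, per the labels' protocols. Cutadapt 1.9, HISAT2 2.0.4 and StringTie 1.3.4d are named in the submitters' processing notes; the build listed there, GRCh38, is human while the gene identifiers are of mouse, so the build behind the values is not known. The deposited table held FPKM per gene and library, per the file headers, and the authors' own fold ratio, log2 fold change, p-value and q-value; which test gave them was not stated. Groups and replicate numbers came from the labels; 0 columns of sample values were left unmapped, and 0 pairs of libraries were identical. The labels give the same batch entry for all libraries, so no batch could be compared.

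Genes with at least 0.5 FPKM in at least 5 libraries were compared on log2(FPKM + 1) with limma 3.58.1 in R 4.3.3 (mean-variance trend, no covariates, two-sided, Benjamini-Hochberg over all 13471 genes, threshold 0.05). The scale understates the change of low genes. The fit was tested on simulated data in which noise was drawn independently for each gene. That test therefore does not show how calls behave in genes that vary together, as the ribosomal protein genes do. Transcript and coding lengths were those of the principal transcript in GENCODE M21, matched by identifier for 97.9% of tested genes, and the length trend was a natural spline with 4 degrees of freedom per library. For 42 of the 84 genes the longest transcript is longer than the principal one, and the length behind the FPKM of StringTie is not known. Promoter windows came from RefSeq on GRCm38.p6; 21 genes had none. Genes were named by size of change, role or departure from the family by a rule, with up to 4 called genes of each other list. The genes of the family and all gene lists were chosen with earlier results of these data known, and no test of a list as a whole was made. Alternatives were other pseudocounts, filters and scalings, length and GC removal, a replicate block, sums with pseudogenes and leaving out each library. Rpl4, Rpl14, Rpl19, Rpl41, Rps10, Rps19, Rptor, Rps6kb1, Rps6kb2, Larp1 and Myc fall outside the rule and were named after their values were seen. Values of some single genes are not reported here.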

Additional observations from a re-analysis of the deposited data

Results flagged for a closer look

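Among 78 groups of 5 libraries, 6 held a library whose gap to its nearest neighbour exceeded 0.71 of the group's range, the 95% limit of Dixon's test. Chance gives about 1 in 20 groups. For single genes the gap and the range were taken on log2(FPKM + 1), while the values printed here are FPKM. Control 1 was the highest of its group for Rpl36, at 168 FPKM against 115 to 119 in the other controls, and for Rps18, at 79.5 FPKM against 62.2 to 63.5. Control 3 was the lowest for Rpl7a, at 14.0 FPKM against 31.9 to 43.0, and the highest control for its pseudogene Rpl7a-ps11, at 136 FPKM. Labelled knockdown 2 was the lowest for Rpl17, at 55.4 FPKM against 99.6 to 125, and the highest for its pseudogene Rpl17-ps10, at 235 FPKM. Labelled knockdown 5 was the highest for Rplp1, at 898 FPKM against 665 to 707. In labelled knockdown 1 the genes encoded in mitochondrial DNA took 21.7% of all FPKM, against 14.4 to 16.3% in the other libraries of its group.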

How the results depend on the processing

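The higher level of both subunits kept its direction in all settings run, and 0 ribosomal protein genes were called lower in any. With no filter on low values 15 large subunit genes were higher, and of all genes 511 were higher and 682 lower. With the length trend removed, 8 large and 7 small subunit genes were higher (medians 0.21 and 0.20), against 6.31% of all tested genes, and 678 of all genes were lower. With GC removed too, 8 and 6 were higher (medians 0.24 and 0.21), against 6.17%, and 679 of all genes were lower. With the longest transcript as length, 10 and 9 were higher (medians 0.23 and 0.23), against 6.78%, and 720 of all genes were lower. With all libraries at the same FPKM total, 16 and 10 were higher, with 635 of all genes higher and 1976 lower, and the targeted gene Lgals3 log2 fold change was -0.00122. The count of genes above the family median was 4 after length removal and 4 in sums with pseudogenes, where 8 were below.

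Same-numbered libraries of the groups deviated together with correlations of only -0.015 to 0.114. These weak correlations do not show that the numbers pair the samples, and with so few libraries they cannot exclude it. With a replicate block 21 large and 16 small subunit genes were higher, against 5.71% of all tested genes. With block and length removal 5 and 3 were higher (medians 0.21 and 0.20), against 4.95% of all tested genes, and 570 of all genes were lower.

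Leaving out each library in turn gave 10 to 27 large and 9 to 17 small subunit genes higher, 440 to 954 of all genes higher and 533 to 1733 lower, 1 to 4 genes above and 11 to 15 below the family median, and -0.0934 to 0.264 for the targeted gene Lgals3 log2 fold change, which was also below 0 at -0.00961 without labelled knockdown 2. Removal of the length trend turned the sign of 12 of the 82 tested genes, 0 of them called, and left 65 positive against 75; Rpl4 went to -0.0155 and Rpl41 to -0.00154. Rack1 stood at 0.016 with the longest transcript as length. Rpl22l1 stood at -0.0202 after length removal, with or without the block, and at -0.00768 with GC removed too. Rpl7l1 stood at 0.0294 with median-of-ratios scaling, 0.0513 after length removal with or without the block, 0.0818 with GC removed too and 0.0338 with the longest transcript, and ran from -0.0561 to 0.0664 with a library left out, above 0 without control 2, control 5 or labelled knockdown 2. The depth is unknown, so the limit it sets on low genes such as Rpl39l cannot be given.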
